A study of Mus musculus with 10 samples.

Results

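The natriuretic peptide system was examined in diabetic ulcers through 7 genes of the 55421 in the deposited table: the hormone genes Nppa, Nppb and Nppc, the receptor genes Npr1, Npr2 and Npr3, and the protease gene Corin. They are the rows whose gene name is one of these symbols, and the family was chosen by the level of Npr3, which differed strongly between the groups. RNA of ulcer tissue was sequenced from db/db mice, which lack a working leptin receptor and become obese and diabetic, after surgical excision of skin. After 7 days of administration, 5 libraries represented treatment with saline alone (saline 1 to 5) and 5 represented saline plus Fu Huang ointment (ointment 1 to 5). Both groups carried the db/db mutation and the excision, and there was no group without diabetes or without a wound. The age and sex of the mice, and whether each library came from a separate animal, were not stated in what was analysed here. The p-values therefore describe spread among libraries, part of which may be technical.

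Natriuretic peptides are hormones that signal through cyclic GMP (cGMP). ANP (from Nppa) and BNP (from Nppb) are made mainly by the heart and act on the guanylyl cyclase receptor Npr1, while CNP (from Nppc) is made by endothelium, among other tissues, and acts on the cyclase receptor Npr2. Npr3 binds all of these peptides but has no cyclase domain, and takes them into the cell for degradation. Corin cuts the ANP precursor to its active form, and in skin it is also a gene of the dermal papilla, the mesenchymal core of the hair follicle. In fat tissue, natriuretic peptides drive lipolysis through Npr1, and Npr3 limits this by removing the peptide.

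The peptides share a ring of 17 residues closed by a bond between a pair of cysteines, and it is this ring that the receptors bind. The codons of the ring are shown for Nppb and Nppc because they are where the products of these hormone genes can be compared, each with its 2 cysteine codons in capitals. They were read from the GENCODE M21 transcripts (GRCm38), 5′ to 3′ on the coding strand, at chr4:147986464-147986514 (plus strand) for Nppb and chr1:86669667-86669717 (minus) for Nppc. Each lies within 1 exon.
Nppb: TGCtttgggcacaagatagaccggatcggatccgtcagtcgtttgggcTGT
Nppc: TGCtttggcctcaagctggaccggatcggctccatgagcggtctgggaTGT
The rings of Nppb and Nppc had 40 of 51 bases and 13 of 17 residues in common.

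Totals were 58.1 to 62.7 M counts (M, mega) in the saline libraries and 47.8 to 62.9 M in the ointment libraries. Levels are TMM-normalized CPM, counts divided by the effective library size in M. Pearson correlations of log2 CPM across genes were 0.910 to 0.923 between saline libraries, 0.899 to 0.925 between ointment libraries and 0.868 to 0.916 between groups. The tissue held transcripts of keratinocytes (10 markers, summed 15604 to 28614 CPM over the 10 libraries) and fibroblasts (10 markers, 18634 to 59600 CPM), and no marker of either list was at 0 in all libraries. In these bulk samples, fewer cells of a type and less RNA per cell cannot be told apart.

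With ointment, the clearance receptor gene Npr3 was the member with the largest difference. Npr3 (chromosome 15, 11839896 to 11907287, minus strand) was at 2.78, 1.11, 6.74, 7.73 and 8.54 CPM in saline libraries 1 to 5. It was at 71.9, 59.6, 32.7, 67.1 and 47.5 CPM in ointment libraries 1 to 5. Every ointment library was above every saline library, and the lowest of them (ointment 3) was 3.83 times the highest saline library (saline 5). The means were 5.38 ± 3.26 and 55.7 ± 15.8 CPM (SD, n = 5), a 10.4-fold difference (log2 fold change 3.37, SE 0.53). By fold change it stood 34th of the 18509 genes tested, and 21st of the 12303 at 5 CPM or more on average. Since Npr3 was chosen for this difference, these values are a description and no test is given for them. On a relative scale the saline libraries varied more than the ointment libraries, from saline 2 to saline 5 by 7.7-fold, against 2.2-fold from ointment 3 to ointment 1.

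**Figure D1:**
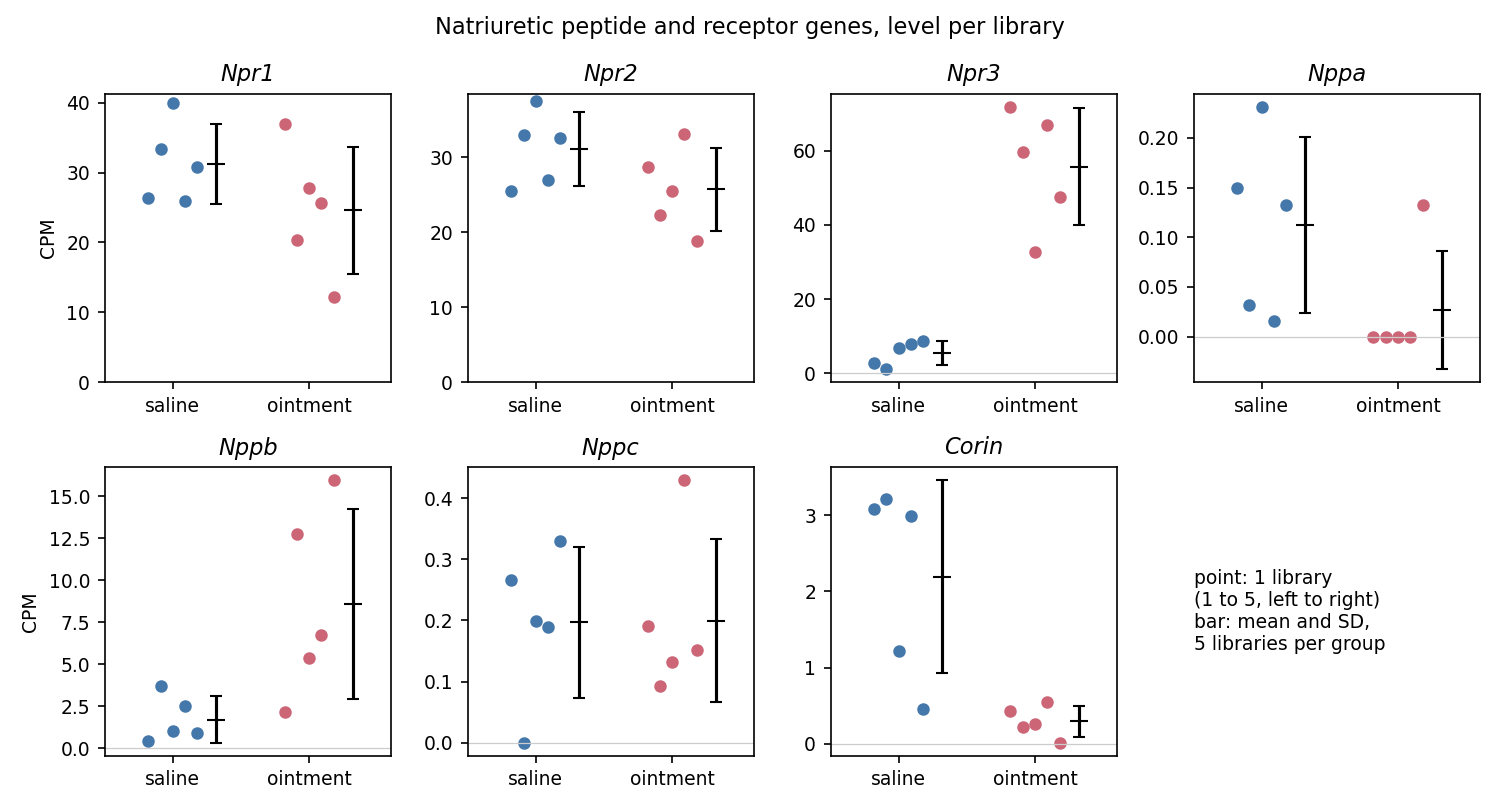
Level of each member in TMM-normalized CPM (y axis, linear, a scale of its own per gene) in the saline and ointment libraries, 1 point per library, with the mean and SD of 5 libraries. The ointment libraries of Npr3 lie between 32.7 and 71.9 CPM, all above the saline libraries, while the groups overlap for the other 6 genes.

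The stretch of the genome before Npr3 is shown because this is the member whose transcript differed most, and that before Nppb because, of the other members, its mean was higher with ointment by the largest fold (5.04). All 7 members had an entry in the RefSeq promoter table (GRCm38.p6), which gives 250 bases before to 50 bases after the start of each gene. Npr3 is at chr15:11907322-11907621 (minus strand), with a run of 28 GAA units in capitals, and Nppb at chr4:147985650-147985949 (plus strand), with AGATAA and TATAAA in capitals.
Npr3: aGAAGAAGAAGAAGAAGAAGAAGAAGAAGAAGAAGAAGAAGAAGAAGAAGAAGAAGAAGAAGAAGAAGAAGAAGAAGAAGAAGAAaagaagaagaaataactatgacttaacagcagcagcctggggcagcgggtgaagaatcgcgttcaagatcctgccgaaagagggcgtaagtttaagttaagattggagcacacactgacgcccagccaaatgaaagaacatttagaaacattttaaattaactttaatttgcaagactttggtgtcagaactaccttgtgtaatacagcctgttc
Nppb: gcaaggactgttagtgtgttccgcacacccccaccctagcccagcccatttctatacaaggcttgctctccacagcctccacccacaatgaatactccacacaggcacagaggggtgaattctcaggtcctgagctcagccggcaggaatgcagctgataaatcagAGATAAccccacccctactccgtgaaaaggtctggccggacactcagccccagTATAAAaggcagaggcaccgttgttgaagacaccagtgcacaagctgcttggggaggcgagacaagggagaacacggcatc
Of 32851 promoters in that table, 13 held a run of 8 or more GAA units on either strand (0.0396%). The letters TATAAA, searched on both strands, occurred in the windows of Nppa, Nppb and Nppc, and in none of those of Npr1, Npr2, Npr3 and Corin. They occurred in 13.6% of all promoters. TATAAA began 31 bases before the start in the Nppb window, 29 in that of Nppc and 9 in that of Nppa. AGATAA (11.2% of all promoters) was found for Nppb alone among the members. TGACTCA (5.20%) and TGACGTCA (1.79%) were found for none of the 7. These motifs do not overlap each other in the windows. In GENCODE the coding transcripts of Npr3 start at 11907287, 11905674 and 11905639, downstream of the RefSeq start. Nppb starts at 147985788 in GENCODE, inside the window and upstream of both marked motifs. The deposited counts do not say which start was used for either gene.

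The cyclase receptor genes had lower means with ointment, by amounts within the spread between libraries. Npr1 (chromosome 3, 90450591 to 90465866), the receptor for ANP and BNP, was at 26.3, 33.3, 39.9, 25.9 and 30.8 CPM in saline libraries 1 to 5 and at 36.9, 20.4, 27.8, 25.7 and 12.2 CPM in ointment libraries 1 to 5. The groups overlapped, with ointment 5 the lowest of the 10. Its log2 fold change was -0.35 (SE 0.26, 95% interval -0.93 to 0.24, edgeR adjusted p = 0.578). Npr2 (chromosome 4, 43631935 to 43651244), the receptor for CNP, was at 25.5, 33.0, 37.6, 27.0 and 32.6 CPM with saline and at 28.8, 22.3, 25.5, 33.1 and 18.8 CPM with ointment. The groups overlapped here too, and ointment 5 was again the lowest library. Its log2 fold change was -0.28 (SE 0.17, 95% interval -0.66 to 0.11, edgeR adjusted p = 0.478).

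Per length of exon the receptors could be set beside each other. In the saline libraries Npr2 (6.67 ± 1.05 CPM per kb) and Npr1 (6.53 ± 1.20) did not differ beyond their spread, and Npr3 lay far below both at 0.573 ± 0.347 CPM per kb. In the ointment libraries Npr3 (5.94 ± 1.69), Npr2 (5.51 ± 1.19) and Npr1 (5.14 ± 1.91 CPM per kb) overlapped. Npr3 made up 2.63, 0.835, 4.20, 6.85 and 6.34% of the receptor transcripts per length in saline libraries 1 to 5. It made up 35.6, 41.2, 23.6, 36.4 and 43.4% in ointment libraries 1 to 5. The change in this share came with the level of Npr3, which the choice of the family used. The sum of Npr1 and Npr2 was 10.95 to 16.4 CPM per kb with saline and 6.59 to 13.9 CPM per kb with ointment. The ratio of Npr1 to Npr2 per length stayed between 0.920 and 1.04 in the saline libraries and ran from 0.633 (ointment 5) to 1.25 (ointment 1) in the ointment libraries. With the longest coding transcript as the length in place of all exons, the share of Npr3 was 0.926 to 7.54% with saline and 25.6 to 45.8% with ointment.

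**Figure D2:**
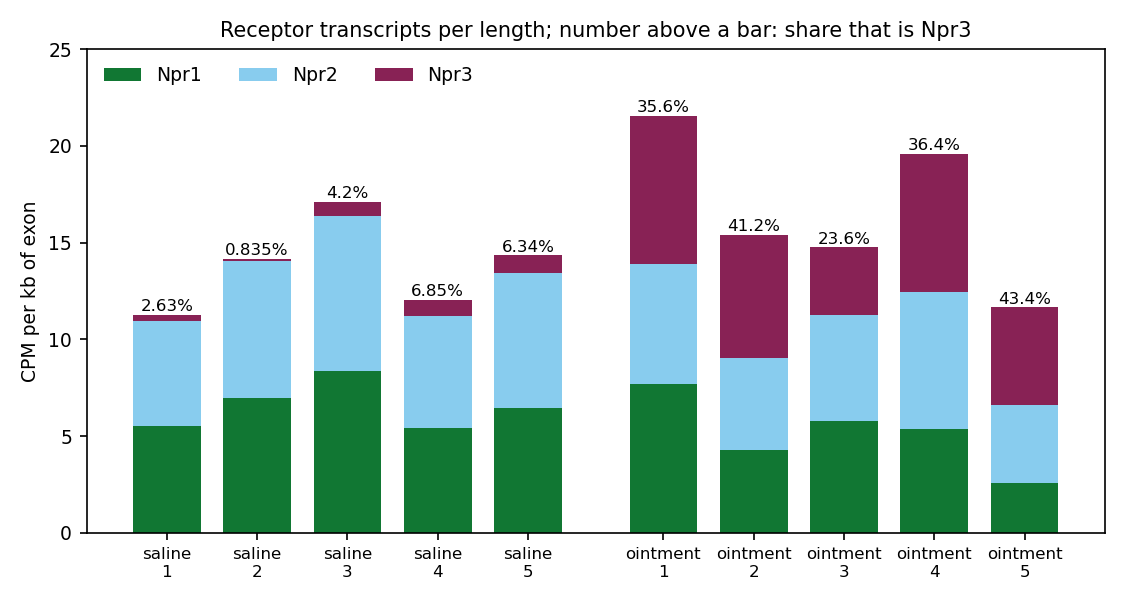
Stacked bars of Npr1, Npr2 and Npr3 in CPM per kb of exon (y axis, from 0) in each of the 10 libraries, with the share that is Npr3 printed above each bar. Npr3 is at most 6.85% of the stack in the saline libraries and at least 23.6% in the ointment libraries.

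Of the hormone genes, Nppb was the most abundant, and its mean was higher with ointment. Nppb (chromosome 4, 147985788 to 147987205), which encodes BNP, was at 0.399, 3.71, 1.01, 2.51 and 0.892 CPM in saline libraries 1 to 5 and at 2.13, 12.8, 5.38, 6.72 and 15.97 CPM in ointment libraries 1 to 5. Of the ointment libraries 4 were above every saline library, and ointment 1 lay below saline 2 and saline 4. The means were 1.71 ± 1.37 and 8.59 ± 5.64 CPM, and the log2 fold change of 2.33 (SE 0.69, 95% interval 0.79 to 3.87) did not pass the threshold after adjustment over all genes (unadjusted p = 0.00708, edgeR adjusted p = 0.121). DESeq2 called it (adjusted p = 0.00682). Per length, Nppb was at 2.18 ± 1.76 CPM per kb with saline, below Npr1 and Npr2. It was at 11.003 ± 7.23 CPM per kb with ointment, a range of 2.73 to 20.5 that covered all the receptor genes' means. Ointment 5, the highest library for Nppb, was also the highest for the summed neutrophil markers (7479 CPM, against 1674 CPM in the lowest ointment library and 851 to 2706 CPM with saline). The part of these cells in the value of Nppb was not tested.

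The other hormone genes were near the limit of detection. Nppa (chromosome 4, 148000722 to 148002079, 13516 bases beyond the end of Nppb), which encodes ANP, had 9, 2, 14, 1 and 8 counts in the saline libraries. It had 0 counts in ointment libraries 1 to 4 and 7 in ointment 5, and it did not pass the filter on low counts. A count of 0 in these libraries allows a level of up to 0.0495 to 0.0639 CPM (3 counts, counting error only, each count taken as 1 read). If a read adds several counts, these limits are too low. Saline 1, 3 and 5 (0.150, 0.231 and 0.132 CPM) lay above these limits and saline 2 and 4 (0.0322 and 0.0158 CPM) below them. The groups overlapped through ointment 5 (0.132 CPM), and the difference was not tested. Nppc (chromosome 1, 86666291 to 86670571), which encodes CNP, had 16, 0, 12, 12 and 20 counts with saline and 9, 5, 8, 24 and 8 with ointment. The groups overlapped (0.197 ± 0.124 and 0.200 ± 0.133 CPM), and the log2 fold change of 0.02 had a 95% interval of -1.74 to 1.78 (edgeR adjusted p = 0.995). Its estimate was between -0.45 (without ointment 4) and 0.29 (without saline 5) with 1 library left out, and it was 0.58 with limma voom, so no direction could be read. Cardiac muscle is the main source of ANP and BNP in the body. Of 10 cardiac markers, some of them shared with skeletal muscle, 8 were tested and edgeR called 0 (1 at an unadjusted p under 0.05, and 0 by DESeq2), with a summed level of 275 to 832 CPM with saline and 164 to 482 CPM with ointment. The levels of single markers differed widely. Myh6 was at 0 to 0.363 CPM and Nkx2-5 at 0 in 9 of 10 libraries, while the other 8, among them the cardiac troponin gene Tnni3 (1.40 to 4.05 CPM), were above 0 in all 10. The part of muscle in the levels of the hormone genes was not tested.

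Corin (chromosome 5, 72300025 to 72504473) had a lower mean with ointment. It was at 3.08, 3.22, 1.22, 2.99 and 0.463 CPM in saline libraries 1 to 5 and at 0.426, 0.224, 0.264, 0.555 and 0.0189 CPM in ointment libraries 1 to 5. The groups overlapped through a single pair of libraries, saline 5 and ointment 4. The means were 2.19 ± 1.26 and 0.298 ± 0.204 CPM, 7.37-fold apart, and the log2 fold change of -2.87 (SE 0.75, 95% interval -4.55 to -1.20) did not pass the threshold (unadjusted p = 0.00331, edgeR adjusted p = 0.0873). DESeq2 called it (adjusted p = 0.0014). Hair follicle genes moved in the same direction. Of 6 inner root sheath genes 5 fell, including the keratin genes Krt25, Krt27 and Krt28, and the summed level of the list was 29.0 to 668 CPM with saline and 9.97 to 36.4 CPM with ointment. DESeq2 called the same number and limma voom 0. The lowest saline library of that sum was saline 5, which was also the lowest saline library for Corin. Among the ointment libraries the order differed: ointment 5 was the highest for that sum (36.4 CPM) and the lowest for Corin (0.0189 CPM). Of 10 dermal papilla genes, Corin among them, 7 had negative fold changes and 1 fell, the transcription factor gene Lef1. DESeq2 called 4 of the 10, Corin and Lef1 among them, and limma voom 1. The list's median was -1.13 and its summed level 161 to 228 CPM with saline and 121 to 233 CPM with ointment. Saline 5, the lowest saline library for Corin, was the highest saline library of this sum, and ointment 5 was the lowest ointment library of both. The papilla marker Alpl had a fold change of the opposite sign (0.81, edgeR adjusted p = 0.463). No gene of either list was at 0 in all libraries, and the part of the follicles in the value of Corin was not tested.

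Apart from Npr3, 0 of the 5 members tested passed the threshold with edgeR, where 1.67% of the 18509 genes did (0.692% higher and 0.983% lower with ointment). At an unadjusted p under 0.05 there were 2, Nppb and Corin, where there were 3174 among the 18509 genes. DESeq2 gave an adjusted p for 6 members other than Npr3 and called the same 2, where it called 6.94% of 21605 genes. With limma voom the count was 0. Of the 6 tested members, Npr3 alone had groups that did not overlap, as had 6.54% of all genes tested (3.11% with ointment higher and 3.44% with ointment lower). Nothing is read from that count, since Npr3 was chosen on this contrast. Leaving out any 1 library did not bring Npr1, Npr2, Nppb, Nppc or Corin past the threshold. On the strand question, Npr1, Npr2, Npr3, Nppa and Corin each share exon sequence with a gene on the opposite strand. The highest of these partners (Gm16048, beside Npr1) reached 0.696 CPM, and Gm5144, beside Npr3, reached 0.645 CPM. For Nppa, the partner Gm13054 (up to 0.380 CPM) was as abundant as the gene itself, so its reads could not be told from those of Nppa.

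Around the members, 48 genes of hormone processing, of other cGMP sources and of cGMP action were looked at, of which 40 were tested. Of these 1 rose and 1 fell, 5% against 1.67% of all genes, with a median log2 fold change of -0.06 against -0.00252 over all genes. The gene that rose, Pde1b, encodes a calmodulin-dependent phosphodiesterase that degrades cyclic nucleotides. It was at 11.8, 22.0, 17.5, 24.6 and 21.2 CPM with saline and at 35.0, 61.8, 56.2, 37.6 and 93.4 CPM with ointment, without overlap (a log2 difference of 1.55, SE 0.30, edgeR adjusted p = 0.0343). The gene that fell, Plcb3, encodes a phospholipase C activated by G proteins. It was at 85.7, 95.3, 91.7, 84.1 and 88.02 CPM with saline and at 66.8, 66.9, 64.3, 73.8 and 66.1 CPM with ointment, also without overlap (a log2 difference of -0.40, SE 0.08, edgeR adjusted p = 0.0416). Both calls were fragile. When each library was omitted in turn, Pde1b passed in 2 of 10 fits (highest adjusted p 0.0848) and Plcb3 in 1 (highest 0.107).

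Among the genes that make or remove the peptides, 5 of 8 were tested and none passed with edgeR. An unadjusted p under 0.05 was found for 2, and for 3174 of all 18509 genes tested. Ide, the insulin-degrading enzyme, which also cuts natriuretic peptides, was at 484 ± 59.4 CPM with saline and 336 ± 60.8 CPM with ointment (a log2 difference of -0.53, adjusted p = 0.0998). DESeq2 called it (adjusted p = 0.037) and no other gene of the list. Furin, a protease that cuts the precursors of BNP and CNP, was at 57.1 ± 18.1 and 117 ± 70.6 CPM (1.03, adjusted p = 0.192), with 236 CPM in ointment 5. Without that library its fold change was 0.60. Mme (neprilysin), the main enzyme that degrades these peptides, was at 11.7 ± 3.33 and 14.7 ± 3.88 CPM (0.33, adjusted p = 0.592), and Dpp4 at 78.9 ± 29.9 and 112 ± 45.6 CPM (0.50, adjusted p = 0.534). Ostn, which encodes osteocrin, a ligand of Npr3, did not pass the filter, with 20 counts over the saline libraries and 15 over the ointment libraries.

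Of the other cyclases, their ligands and the nitric oxide synthases, 12 of 14 were tested and none passed with edgeR. At an unadjusted p under 0.05 there were 2, where there were 3174 among all 18509 genes tested. Negative fold changes were found for 9 of the 12, and for 9314 of the 18509. Guca2a, which encodes guanylin, the ligand of the cyclase Gucy2c, was at 1.23 ± 0.414 CPM with saline and 0.511 ± 0.170 CPM with ointment (a log2 difference of -1.26, edgeR adjusted p = 0.125). Nos2, the inducible nitric oxide synthase of activated macrophages and neutrophils, was at 3.88 to 34.7 CPM with saline and at 10.2 to 477 CPM with ointment (2.79, adjusted p = 0.207). Without ointment 5, its highest library, the fold change was 1.51. DESeq2 called Guca2a (adjusted p = 0.0308) and Nos2 (adjusted p = 0.0234), and limma voom called no gene of the list. Gucy1b1, a subunit of the cyclase that nitric oxide activates, was at 15.1 ± 1.10 and 11.3 ± 3.21 CPM (-0.42, adjusted p = 0.337), and the receptor-type cyclase gene Gucy2g at 0.477 ± 0.322 and 0.213 ± 0.116 CPM (-1.16, adjusted p = 0.344).

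Of 26 genes of cGMP action and breakdown and of G protein signalling, 23 were tested, and Pde1b and Plcb3 were the 2 that edgeR called. DESeq2 called these and Mrvi1 (adjusted p = 0.0306). Mrvi1, a target of cGMP-dependent protein kinase in smooth muscle, was at 9.19 ± 1.04 CPM with saline and 6.26 ± 1.11 CPM with ointment without overlap, and did not pass with edgeR (log2 fold change -0.55, edgeR adjusted p = 0.132). The phosphodiesterase gene Pde11a was at 5.86 ± 1.53 and 3.45 ± 1.28 CPM (-0.76, adjusted p = 0.218). The kinase gene itself, Prkg1, was at 15.6 ± 1.40 and 14.8 ± 6.46 CPM (-0.08, adjusted p = 0.95).

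**Figure D3:**
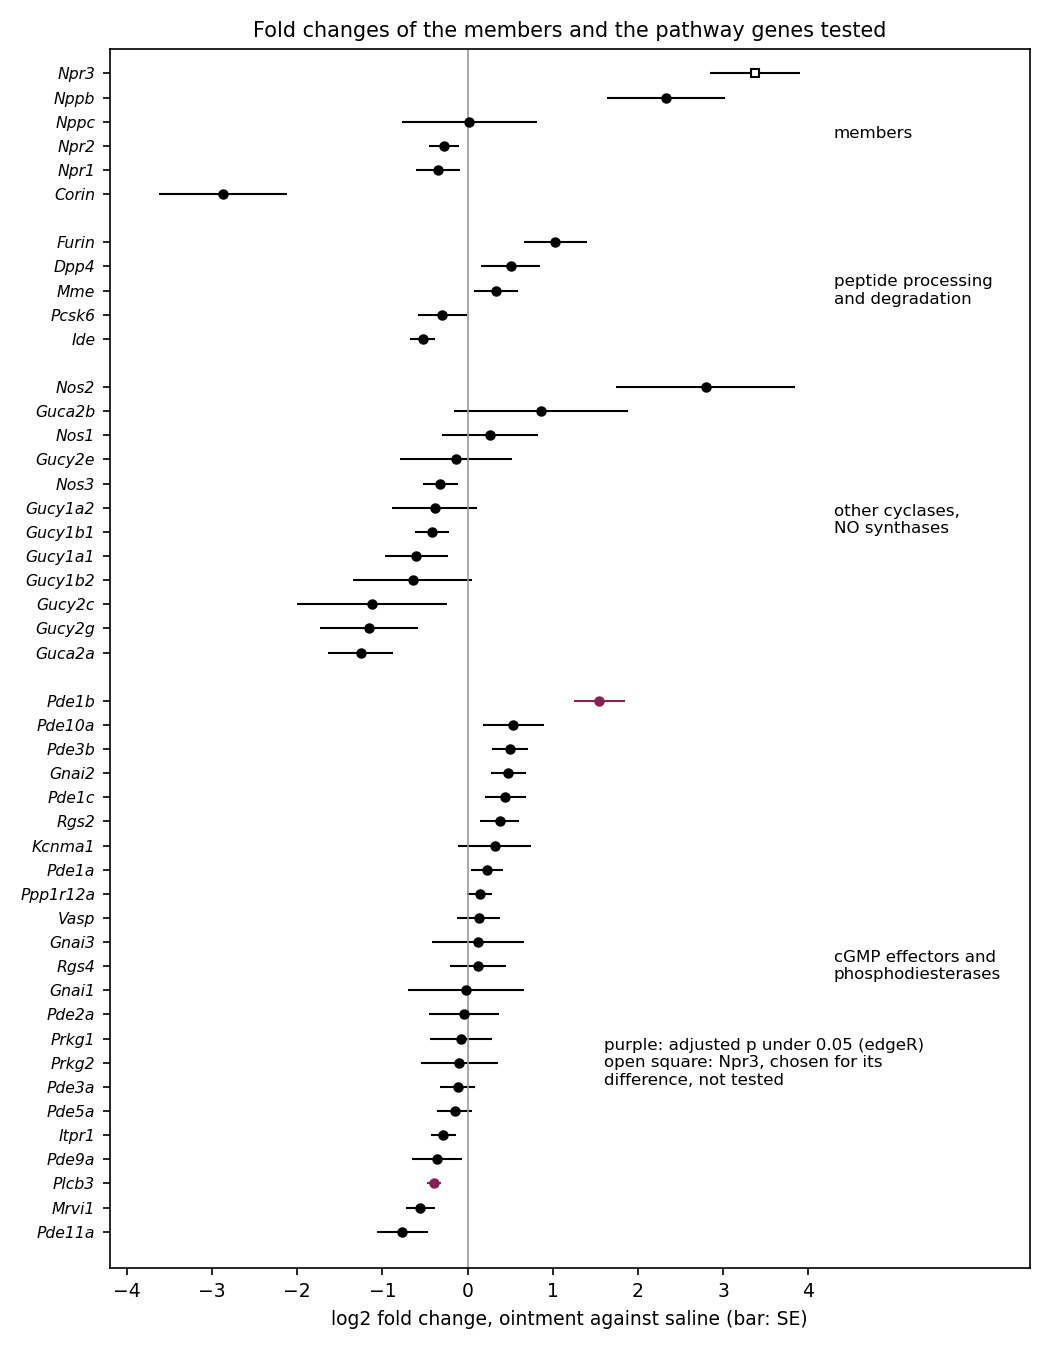
Log2 fold change of ointment against saline (x axis, with its SE) for the 6 tested members and the 40 tested pathway genes, in 4 groups. Pde1b (1.55) and Plcb3 (-0.40) are the pathway genes past the threshold (purple), and Npr3 (open square, 3.37) is shown without a test.

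Between the groups, cell type markers moved beside Npr3. All 10 macrophage markers had positive fold changes and 3 rose, among them Adgre1 (148 ± 17.0 to 271 ± 19.4 CPM) and Cd68 (157 ± 14.3 to 269 ± 27.4 CPM). Their summed level was 2729 to 5206 CPM with saline and 6619 to 8639 CPM with ointment. Within the saline group this sum and Npr3 were both highest in saline 4 and 5. Within the ointment group the sum was highest in ointment 5 and 3 (8639 and 8448 CPM), the lowest ointment libraries for Npr3 (47.5 and 32.7 CPM). Of 10 adipocyte markers, 7 had positive fold changes. The leptin gene Lep rose, from 2.96 to 15.8 CPM with saline to 8.44 to 261 CPM with ointment, and the adipsin gene Cfd fell. Adipoq was at 96.4 ± 63.1 and 39.3 ± 12.2 CPM (a log2 difference of -1.29, edgeR adjusted p = 0.137), and Plin1 at 18.3 ± 7.40 and 43.2 ± 13.7 CPM (1.24, adjusted p = 0.0763). DESeq2 called 6 of the 10 adipocyte markers, Adipoq and Plin1 among them, and limma voom 1. The summed adipocyte level overlapped between groups (806 to 2338 and 1229 to 2220 CPM). The 10 endothelial markers were all negative in fold change, and edgeR called 0 (4 at an unadjusted p under 0.05, and 1 called by DESeq2), with a summed level of 740 to 1063 and 496 to 820 CPM. Of 10 pericyte and smooth muscle markers, 9 had negative fold changes and 1 fell, Myh11, with a summed level of 994 to 1418 and 518 to 1060 CPM. Of 9 neutrophil markers tested, 8 had positive fold changes, with a median of 1.45, and edgeR called 0 (7 at an unadjusted p under 0.05, 5 called by DESeq2 and 0 by limma voom). Of 6 melanocyte markers 5 had negative fold changes and 3 fell, the pigment synthesis genes Dct, Tyrp1 and Tyr, with a summed level of 49.6 to 106 CPM in the saline libraries and 27.0 to 47.3 CPM in the ointment libraries. Of 6 Schwann cell markers 5 had negative fold changes and 1 fell, Sox10, with summed levels of 53.9 to 161 and 60.4 to 119 CPM. DESeq2 called 5 macrophage, 3 pericyte and smooth muscle, 5 melanocyte and 2 Schwann cell markers, and limma voom 3, 1, 2 and 1. Of 10 keratinocyte markers 9 had negative fold changes and edgeR called 0 (3 at an unadjusted p under 0.05, 2 called by DESeq2 and 1 by limma voom). Over all 18509 genes tested, 9195 fold changes were positive and 9314 negative, and 3174 genes had an unadjusted p under 0.05. No marker of these lists was at 0 in all libraries, and their part in the value of Npr3 was not tested.

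The chromosome around Npr3 held a further transcript that was higher in every ointment library. Of the 9 other genes tested within 500 kb of Npr3, 1 rose, where 0.692% of all 18509 genes tested did. It was the long noncoding RNA gene 1700047G03Rik (chromosome 15, 11964276 to 11970086, plus strand). It lies 56989 bases upstream of Npr3 and is transcribed away from it. It had 0, 0, 4, 0 and 1 counts in saline libraries 1 to 5 and 86, 187, 36, 46 and 131 counts in ointment libraries 1 to 5. Every ointment library was above every saline library (log2 fold change 6.64, SE 0.99). The edgeR adjusted p was 0.0159, at most 0.0439 with any 1 of the 10 libraries omitted, and 0.168 with a replicate block. Only the ointment libraries brought 1700047G03Rik past the filter on low counts, so the test was on a gene admitted by its high group. These p-values are therefore no support for the difference. With values divided by 4, this gene did not pass the filter. The saline total of 5 counts makes the size of the fold uncertain, from 6.27 without ointment 2 to 8.19 without saline 3. The order of the ointment libraries was not that of Npr3: ointment 2 and 5 were highest for 1700047G03Rik, and ointment 1 and 4 for Npr3. Sub1, a transcription cofactor gene and the nearest protein-coding neighbour among those tested, was at 174 CPM with saline and 200 CPM with ointment (0.20, adjusted p = 0.56), and the remaining 7 genes lay between -0.72 (Pdzd2) and 0.40 (Mtmr12). The groups did not overlap for either of these, with Pdzd2 lower and Mtmr12 higher in the ointment libraries. DESeq2 called Pdzd2 beside 1700047G03Rik, and edgeR did not (adjusted p = 0.112). The window was set after earlier results on Npr3 were known. Around Nppb, 0 of the 6 other genes tested within 100 kb passed with edgeR, with 1 at an unadjusted p under 0.05 (Plod1, log2 fold change 0.46), and DESeq2 called none.

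**Figure D4:**
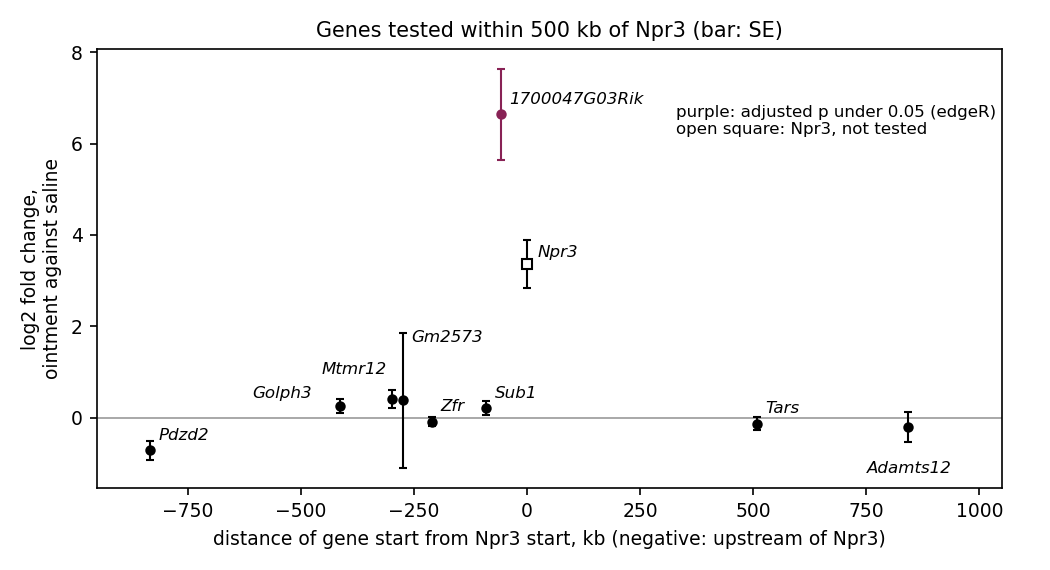
Log2 fold change of ointment against saline (y axis, with its SE) for the 9 genes tested within 500 kb of Npr3, against the distance of each gene's start from that of Npr3 in kb (x axis, negative upstream). 1700047G03Rik (6.64, purple) and Npr3 (open square, 3.37) stand above the other 8 genes, which lie between -0.72 and 0.40.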

How the data were processed

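RNA of ulcer tissue was measured by RNA sequencing in 10 libraries, 5 per group, grouped by the treatment in the labels. The authors deposited 1 table of estimated counts for 55421 genes, and the submitters' processing notes name the build GRCm38 (mm10). Aligner, counter and annotation: not given in the sources used here. No label states that the kit marks strand. All values are whole, but multiples of 4 are over-represented (the values 3, 4 and 5 occur 4235, 9202 and 5804 times), so a value need not be 1 read per unit. Limits that take each count as 1 read may therefore be too low. The 95% intervals come from the edgeR fit, which takes in the spread between libraries. Totals were 47.8 to 62.9 M counts.

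Values were entered as they stand in edgeR 4.0.16 (R 4.3.3), with TMM scaling, filterByExpr (minimum count 10, total 15) and the robust quasi-likelihood test over all 18509 genes that passed. Calls are at a Benjamini-Hochberg adjusted p under 0.05. Of the 18509 genes, 3174 had an unadjusted p under 0.05, and fold changes were above 0 for 9195 and below 0 for 9314. Alternatives were other scalings, no filter, DESeq2 1.42.0, limma 3.58.1 (voom with sample weights), values divided by 4, a replicate block, and each library left out. Scripts were tested on simulated data, where edgeR called 11% of 100 genes set to a 2-fold change and 58% of 100 set to 4-fold. A gene that was not called may therefore still differ. The members and lists were chosen with earlier results of these data known. The genes named are the 7 members; from each of 3 pathway lists those past the threshold, then those of smallest p until 4 are named; up to 3 in list order from a marker list that moves beside a result; and the 5 genes most like Npr3 by each of 2 correlations, clone names left out. A gene and a sequence that these rules would print are not reported here. Prkg1, Ostn, Cfd, Lef1, Myh11, Nkx2-5 and the genes near Npr3 and Nppb were named after their values were seen. Of the gene IDs, 55154 were found in GENCODE M21 (GRCm38), which gave positions and exon lengths, and 267 were not. Promoters came from RefSeq.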

Additional observations from a re-analysis of the deposited data

Results flagged for a closer look

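Of 14 groups of 5 libraries looked at (7 members in each treatment), 1 held a library that stood apart by Dixon's criterion (critical value 0.71 for 5 samples). Nppa was at 0.132 CPM (7 counts) in ointment 5 and at 0 in the other ointment libraries. With those 4 libraries tied at 0, any count above 0 in the other would have met the criterion, so the usual chance rate of about 1 in 20 groups does not apply to it.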

How the results depend on the processing

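The depth leaves Nppa and Nppc at a few counts per library, and 5 libraries a group limit what can be called. The log2 fold change of Npr3 was 3.32 to 3.61 under the other settings and 3.13 to 3.60 with 1 library left out. The number of genes called (310) was 1500 with DESeq2 and 102 to 422 with 1 library left out. Of the members other than Npr3, DESeq2 called 2, Nppb (log2 fold change 2.34) and Corin (-2.88). The pathway genes called (2) were 1 without the filter, 6 with DESeq2 and 0 to 2 with 1 library left out. The fold change of Nppc was -0.004 with upper-quartile scaling, -0.0146 with library sizes alone, -0.28 without saline 2, and -0.45 to 0.29 with 1 library left out. Leaving out 1 library kept Nppb at 1.98 to 2.84 and Corin at -3.21 to -2.57. Corin, Nppc and 1700047G03Rik, the neighbour of Npr3, did not pass the filter with values divided by 4. The cause of these shifts was not tested.

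The labels do not say whether libraries with the same number in both groups are paired. Their deviations from the group means correlated at 0.056, 0.0061, -0.073, -0.077 and -0.059. Of 5 ointment libraries, 1 correlated best with the saline library of its own number. These values do not settle whether the libraries are paired. With a replicate block, 0 genes, hence 0 pathway genes, were called by edgeR. The fold change of Npr3's neighbour 1700047G03Rik was then 6.80 (adjusted p = 0.168).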

Other observations

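Across the 11937 named genes at a mean of 5 CPM or more, the log2 levels most like those of Npr3 over the 10 libraries were those of Eepd1 (Pearson's r = 0.977), Aifm2 (0.950), Ptgr2 (0.941), Mfsd1 (0.940) and Arhgef6 (0.940). Ptgr2, a prostaglandin reductase gene, was at 26.8 ± 2.78 CPM (saline) against 55.5 ± 6.69 CPM (ointment), and Eepd1 at 15.1 ± 1.51 against 23.3 ± 2.50 CPM, both without overlap. All 10 libraries share the group difference that Npr3 was chosen for, which these correlations hold. After the group means were removed, the genes most like Npr3 included others: Pfn1 (r = 0.917), Tia1 (0.898), Vipas39 (0.895) and Pef1 (0.895). By the same measure Nppc stood at 0.760, Npr2 at 0.160, Npr1 at 0.0675, Nppb at -0.265 and Corin at -0.281. The members were not held to the minimum of 5 CPM. Nppc had 0 to 24 counts per library, 8 of the 10 at multiples of 4, so nothing is read from its value. The highest correlations are descriptions over 10 libraries, taken from many genes, with no test, and those of the members were not tested either.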
